A study of Homo sapiens with 11 samples.

Results

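The regions described here are 13141 strong m6A peaks of H1299 cells that overlapped no peak of A549 cells. N6-methyladenosine (m6A) is a methyl mark on adenosines of RNA, and a peak is a stretch of the genome where RNA fragments pulled down by an m6A antibody piled up. The members were chosen from the authors' peak lists, by a score of at least 250 in the H1299 list (the authors' own value for each peak, on a scale no source used here gives) and by not sharing a single base with a peak in either A549 list. They were 62.6% of the 20992 H1299 peaks with such a score (95% Wilson interval 61.9 to 63.3) and 33.5% of all 39235 H1299 peaks.

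The 11 samples of the study came from A549 and H1299, both established human lung cancer cell lines. Poly(A) RNA of each line was fragmented and immunoprecipitated with an anti-m6A antibody, in 2 immunoprecipitations of A549 and 1 of H1299, each with a peak list. The labels name no knockdown for the immunoprecipitated cells or for the input of each line. RNA-seq libraries were made from shGFP control cells (1 library a line) and from cells with an shRNA against the methyltransferase METTL3 (2 libraries a line). Since H1299 has 1 immunoprecipitation, nothing about the members has a replicate check, and the cell line, the library and its processing cannot be told apart. All counts, shares and medians below are therefore descriptions without a test, and intervals cover counting error only. The number of reads behind each list is unknown. The labels do not say whether the A549 immunoprecipitations came from separate cultures.

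m6A is written mainly by a complex of METTL3, the catalytic subunit, METTL14 and WTAP, removed by FTO and ALKBH5, and bound by YTH domain proteins. In most cells it lies mainly in long exons and around the stop codons of mRNA, and it influences how long a transcript lasts and how well it is translated. A peak can be absent from a list because the site is not methylated, because the RNA is not made, or because too few reads cover it. Peak positions are on hg19. Genes, exons and motifs at the members were not analysed here, and no sequence is printed, since no hg19 genome or annotation was used.

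The H1299 list differed in kind from the A549 lists. It held 39235 peaks with a median width of 795 bp, the narrowest at 271 bp, and covered 42.0 Mb. A549 immunoprecipitations 1 and 2 gave 25074 and 26644 peaks with median widths of 224 and 216 bp, covering 9.09 and 8.77 Mb. The part of these differences in the absence of an A549 overlap was not tested. Within A549, 61.6% of the peaks of immunoprecipitation 1 overlapped a peak of immunoprecipitation 2, and 62.4% the other way round. Of the 3176 peaks of A549 immunoprecipitation 2 with a score of at least 250, 99.8% were found again in A549 immunoprecipitation 1 and 57.9% in H1299. The same score in H1299 left 32.4% of peaks with an overlap in A549 immunoprecipitation 1 and 27.0% in immunoprecipitation 2. A score of 250 was not equally strict in these lists. It was reached by 3176 of 26644 peaks of A549 immunoprecipitation 2 (median score 86.2) and by 20992 of 39235 H1299 peaks (median score 272). The shares are therefore not a like comparison.

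Score and A549 overlap chose the members, so their relation is given as a description. Without regard to score, 69% of H1299 peaks had no A549 overlap, against 62.6% of the strong and 76.3% of the weak ones. The share without A549 overlap was 71.6% between scores of 50 and 75, 70.3% between 75 and 100, and 80.6% between 200 and 250. Further up, between 250 and 300 it was 77.8%, and between 600 and 900 it was 58.3%. It was 40.7% between 900 and 1500 and 13.9% (281 of 2027 peaks) from 1500 upwards. The median score was 409 in the members and 705 in the 7851 strong peaks with an A549 overlap, called strong shared peaks below. A score of at least 500 was found in 34.5% of the members and 65.3% of the strong shared peaks, and of at least 2000 in 0.746 and 12.4%. With a minimum score of 500 in place of 250, 4529 members were left, or 46.9% of the H1299 peaks with that score. If an A549 peak had to cover 50% of the H1299 peak to count as an overlap, 19760 peaks or 94.1% were without it. A549 peaks were narrow, with medians of 224 and 216 bp, so few could cover 50% of a wide H1299 peak.

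**Figure D1:**
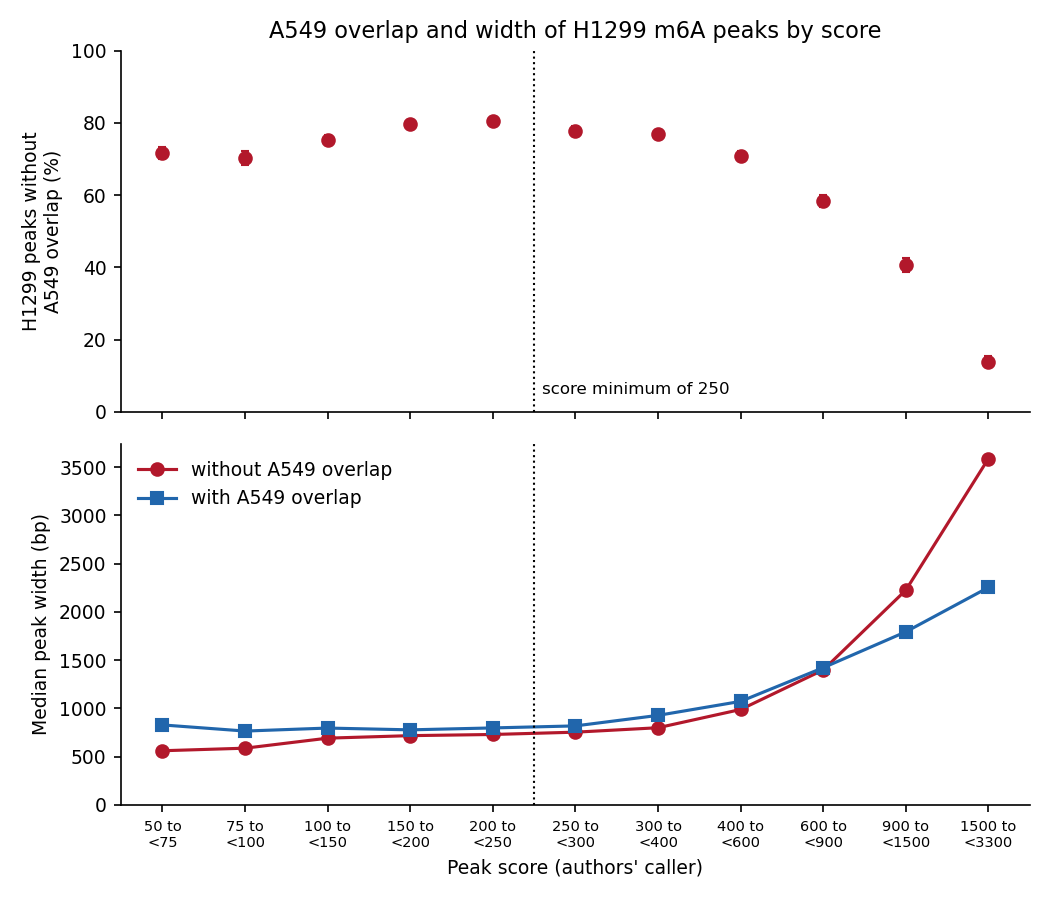
Upper panel: percent of H1299 peaks without an A549 overlap in each class of peak score, with 95% Wilson intervals. Lower panel: median width in bp of H1299 peaks without (circles) and with (squares) an A549 overlap; the share rises from 71.6% in the lowest class to 80.6% between 200 and 250 and falls to 13.9% in the highest, and the widths cross at a score of about 900.

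The 5 members just inside it had scores of 250.03, 250.04, 250.05, 250.06 and 250.06, and widths of 514 to 1249 bp. The 5 peaks without A549 overlap just outside it had scores of 249.99, 249.97, 249.95, 249.92 and 249.87, and widths of 538 to 1211 bp. Both sets held peaks within 3 kb of an A549 peak and peaks over 70 kb away from any. The lowest member score was 250.03 and the highest 3182.92.

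The highest score among the members belonged to chr4:120195779-120201211, a peak of 5433 bp with a score of 3182.92. Its nearest A549 peak lay 124 kb away, and 15 other H1299 peaks lay within 500 kb. The second was chr6:113025242-113028593 with a score of 3101.81 and a width of 3352 bp, 14.8 kb from A549 immunoprecipitation 1 and 71.4 kb from immunoprecipitation 2. These peaks were long, and they did not lie at the edge of an A549 peak.

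A score of exactly 3100 was shared by 264 H1299 peaks, of which 3 were members. They were chr18:76751782-76755402 (3621 bp), chr12:124798536-124800567 (2032 bp) and chr2:243152262-243152797, which at 536 bp was the narrowest of the 25 members with the highest scores. The chromosome 12 peak lay in the densest surroundings of the 25, with 25 A549 peaks of each immunoprecipitation within 500 kb.

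Next to these stood a pair of like peaks on chromosome X. The members chrX:119210791-119211898 and chrX:119292276-119293380 had widths of 1108 and 1105 bp and scores of 2916.31 and 2861.59. Each lay 25.02 kb from the nearest peak of A549 immunoprecipitation 2.

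The 25 as a whole were scattered over the genome, and most were long. Their widths ran from 536 to 6299 bp with a median of 3678 bp, 20 of 25 were at least 3 kb wide, and they lay on 11 chromosomes. The list included chr14:27099283-27104652 (score 3024.72, 5370 bp), chr4:183700152-183706450 (2781.26, 6299 bp) and chr4:15843241-15848833 (2686.03, 5593 bp). It also included chr18:30437355-30442864 (2611.19, 5510 bp), which was 285 kb from A549 immunoprecipitation 1 and 444 kb from immunoprecipitation 2. The 25 lay a median of 31.8 kb from the nearest A549 peak. A few came close to one: chr2:123106680-123110037 (2684.01) ended 0.663 kb from a peak of A549 immunoprecipitation 1 and lay 297 kb from immunoprecipitation 2. For chr2:235797073-235800796 (2616.91) it was the reverse, with 0.892 kb to immunoprecipitation 2 and 60.8 kb to immunoprecipitation 1.

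Over all members the width ran from 271 to 7793 bp, with a median of 932 bp (quartiles 671 and 1366 bp), or 1449 bp with a minimum score of 500. Strong shared peaks had a median of 1408 bp and weak H1299 peaks without A549 overlap 689 bp. Score and width rose together, with a Spearman correlation of 0.487 across the 13141 members; both come from the same reads, and peaks are not independent replicates. At equal score the order depended on the score. Members were narrower than strong shared peaks in each class from 250 to 900 and wider from 900 upwards. Between 250 and 300 the median width was 754 bp in the members and 819 bp in the strong shared peaks. Between 600 and 900 it was 1399 and 1422 bp. Between 900 and 1500 it was 2226 and 1794 bp, and from 1500 upwards 3589 and 2254 bp. With 50% cover as the rule of overlap, the members were the wider group at all scores together (1058 against 982.5 bp). This order is built into that rule in part, since narrow A549 peaks seldom cover 50% of a wide H1299 peak.

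**Figure D2:**
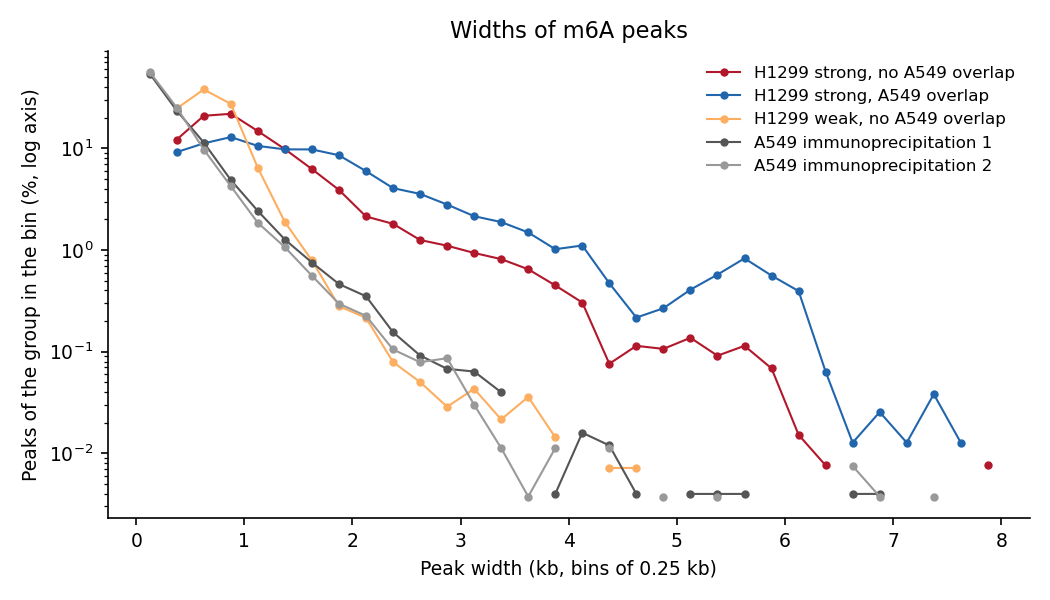
Percent of peaks (log axis) in each 250 bp class of width (classes under 8 kb are drawn) for members, strong shared peaks, weak H1299 peaks without A549 overlap and both A549 lists. Larger shares of the strong H1299 groups than of the A549 lists are wide. The curve of the strong shared peaks has a second hump between 5000 and 6250 bp. That of the members is roughly level between 4250 and 5750 bp and falls above it.

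A small class of members was 5 kb wide or more. It held 58 members, or 0.441%, and 57 of them were between 5000 and 6300 bp. Strong shared peaks had 234 of this width or more (2.98%), and the A549 lists 9 and 6. The 58 had a median score of 1926, lay on 19 chromosomes, and were a median of 49.9 kb from the nearest A549 peak.

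The widest member, chrX:151080635-151088427 (7793 bp), differed from the others in its score of 408.44. The remaining 9 of the 10 widest had scores of 1283.33 to 2781.26 at widths of 5799 to 6299 bp. Among them were chr3:120091622-120097680 (6059 bp, score 2130.37), chr13:101350120-101356088 (5969 bp, 2120.66) and chr12:39193283-39199185 (5903 bp, 2573.03). Another, chrX:47645202-47651077 (5876 bp, 1283.33), lay 0.879 kb from a peak of A549 immunoprecipitation 1. Of the 10, 2 were also among the 25 with the highest scores.

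The members were spread unevenly over the chromosomes. Chromosomes Y and X had the highest shares of strong H1299 peaks without A549 overlap, 81.1% (227 of 280 peaks, Wilson interval 76.1 to 85.2) and 73.2% (1202 of 1643, 71.0 to 75.2). Among the autosomes chromosome 4 had the highest share, 70.7% (1029 of 1456, 68.3 to 73.0). Chromosome 19 had the lowest, 26.1% (148 of 567, 22.7 to 29.9), followed by chromosome 22 with 32.7% (52 of 159, 25.9 to 40.3) and chromosome 17 with 38.0% (188 of 495, 33.8 to 42.3).

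Chromosome X held 9.15% of the members and 5.62% of the strong shared peaks. Chromosome 19 held 1.13% of the members, 5.34% of the strong shared peaks, and 7.32 and 8.43% of the A549 lists. With 50% cover as the rule of overlap it held 2.22% of members and 10.5% of shared peaks. Both groups were chosen by these A549 lists, so a part of the chromosome 19 difference follows from the rule. Chromosome 19 is known as the most gene-dense human chromosome, and chromosomes 17 and 22 are gene-rich too. Per Mb between the outermost peaks, members were densest on chromosome X (7.75 per Mb), followed by chromosomes 4 (5.39) and 5 (5.17), and sparsest on chromosome 22 (1.48). Strong shared peaks were densest on chromosome 19 (7.10 per Mb), where A549 immunoprecipitation 1 had 31.1 and immunoprecipitation 2 had 38.1 peaks per Mb. The order was the same in each of 4 score classes: on chromosome X lay 9.39% of members with a score of 250 to 400 and 9.18% of those from 900 upwards, against 5.62 and 5.43% of strong shared peaks. The copy numbers of these chromosomes in the lines, and their part in these shares, were not analysed here.

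**Figure D3:**
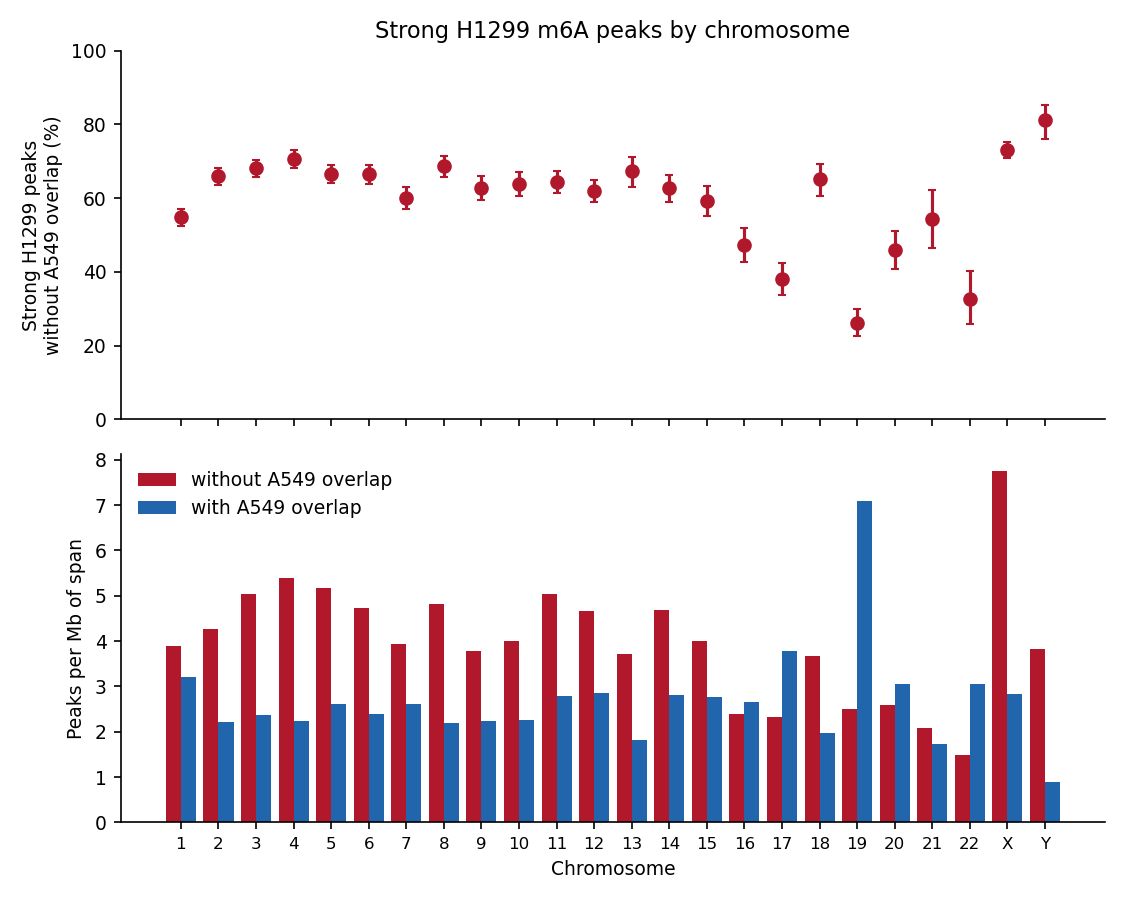
Upper panel: percent of strong H1299 peaks without A549 overlap on each chromosome, with 95% Wilson intervals. Lower panel: strong H1299 peaks without and with A549 overlap per Mb between the outermost peaks; chromosome X has the most members per Mb (7.75) and chromosome 19 the most shared peaks (7.10).

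Around members A549 had fewer peaks over long distances than around strong shared peaks, and H1299 had slightly fewer. Within 500 kb of a member's centre the median was 5 peaks of A549 immunoprecipitation 1 (quartiles 3 and 9) and 4 of immunoprecipitation 2 (2 and 8). Around strong shared peaks it was 10 (6 and 19) and 10 (4 and 23), counts that include the overlapping peak itself. The same A549 lists chose both groups, so a part of this difference follows from the rule. Weak H1299 peaks had medians of 7 and 6 where they did not overlap A549, and of 13 and 15 where they did, so low numbers were not particular to strong peaks. Other H1299 peaks numbered 15 around members (quartiles 10 and 20) and 16 around strong shared peaks (11 and 21).

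At 950 to 1000 kb from the centre, members had a mean of 0.742 peaks of A549 immunoprecipitation 1 per 100 kb. Strong shared peaks had 1.13. For immunoprecipitation 2 it was 0.722 and 1.27, and for H1299 1.41 and 1.45. At 50 to 100 kb the means were 0.697 and 1.53 for immunoprecipitation 1, and 0.617 and 1.75 for immunoprecipitation 2. The gap between the groups was thus smaller farther out. The groups were chosen by these A549 lists, so a part of the difference can follow from the rule at these distances too. Members in each of 4 score classes had the same medians of 5 and 4 A549 peaks within 500 kb. On chromosomes 1 to 22 alone, the medians were 5 and 4 around 11712 members and 10 and 11 around 7357 strong shared peaks, with 14 and 16 other H1299 peaks. A total of 163 members (1.24%) had no A549 peak at all within 500 kb, as had 97 weak H1299 peaks without A549 overlap (0.697%). Strong shared peaks cannot lack one, by the rule. Of 2681 windows of 1 Mb with members, 35 held no A549 peak.

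**Figure D4:**
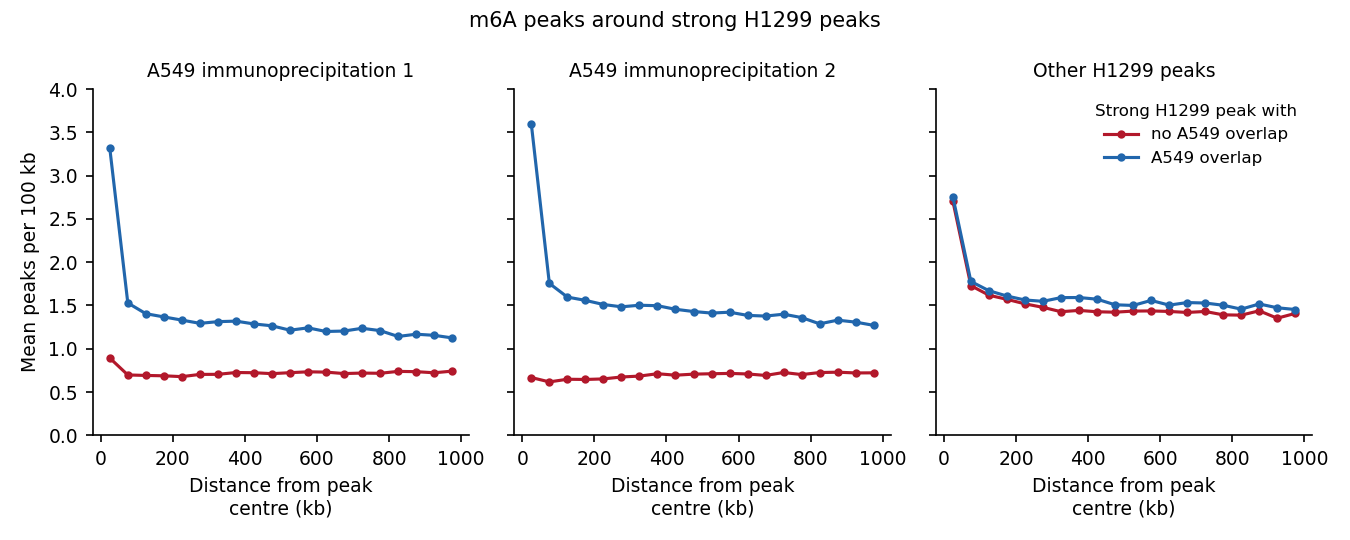
Mean number of peaks per 100 kb at distances of 0 to 1000 kb from the centres of members and of strong shared peaks, in steps of 50 kb; panels count peaks of A549 immunoprecipitation 1, A549 immunoprecipitation 2 and the other H1299 peaks. For both A549 lists the curves draw nearer with distance but stay apart out to 1000 kb. They lie closer together for H1299, where the curve of the shared peaks is slightly higher.

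From the edge of a member, the nearest A549 peak lay at a median of 47.1 kb (quartiles 11.5 and 117 kb). In weak H1299 peaks without A549 overlap the median was 32.7 kb. A total of 86 members (0.654%) had an A549 peak within 100 bp, and 904 (6.88%) within 1 kb. Members chosen without A549 immunoprecipitation 2 or 1 as a reference lay within 1 kb of a peak of either list in 13.7 and 20.1%, and those chosen by 50% cover in 38.1%. Of the members near A549, chr1:71201642-71202367 (score 278.94) and chr7:13805339-13807189 (288.4) directly abutted a peak of A549 immunoprecipitation 1. The 5 members farthest from any A549 peak all lay on chromosome 8, at 1158 to 1272 kb, with scores of 253.4 to 411.48.

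Members tended to be next to members in the H1299 list. The next H1299 peak lay at a median of 1.78 kb from a member and 9.42 kb from a strong shared peak. It was itself a member for 46.5% of members and for 27.3% of strong shared peaks, against 34.2% of all H1299 peaks. Whether a part of this follows from the choice by A549 overlap was not tested. An H1299 peak of any class lay within 1 kb of 43.0% of members and 28.3% of strong shared peaks. It was 28.6% for weak H1299 peaks without A549 overlap and 32.2% for all H1299 peaks. Another member lay within 1 kb of 3296 members (25.1%), and with a minimum score of 500 within 1 kb of 13.7%. These 3296 formed 1514 chains, of which 1274 had 2 members, 216 had 3 and 24 had 4 to 6. The chains spanned a median of 3.11 kb and at most 8.37 kb. Neighbouring members of a chain need not be separate methylation sites.

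The 3 chains with the most members all lay on chromosome Y. They were chrY:58831086-58837492 with 6 members, chrY:58884520-58889947 with 5 and chrY:58902385-58907801 with 5, with scores of 268 to 533. Among the chains of 4 members was chr9:125171514-125175783, whose peaks covered 95.1% of 4.27 kb and whose nearest A549 peak was 120 kb away.

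The 1 Mb windows with the most members, 51 on chromosome Y and 44 on chromosome X against a median of 4, held peaks at even steps. This search for steps was chosen after the peaks' positions had been seen. On chromosome Y, 34 members between chrY:58820375-58907801 had a partner 3573 bp away (within 15 bp; 23 pairs). Their scores were 261 to 574 with a median of 391. Their widths kept to a few values, 654 bp in 16 and 700 bp in 12 of the 34. The same 87.4 kb held 39 peaks of A549 immunoprecipitation 1 and 0 of immunoprecipitation 2, and 5 strong shared peaks. Members here thus lay between A549 peaks, at gaps down to 0.01 kb.

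On chromosome X, 26 members between chrX:49175985-49368609 had a partner 9545 bp away (17 pairs within 15 bp). They were stronger than those on chromosome Y, with scores of 287 to 1050 and a median of 681. This stretch of 193 kb held 35 members in all, 12 weak H1299 peaks, 0 strong shared peaks and 0 peaks of either A549 immunoprecipitation. In its window 14 members had the same width and score as another, such as the 4 peaks of 563 bp with a score of 1007.17.

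A stretch of chromosome 1, chr1:148258347-148325474, showed a step of 9532 bp for 11 members (6 pairs), with scores of 596 to 982. Here 17 members stood beside 15 strong shared peaks over 67.1 kb, and A549 immunoprecipitation 2 had 14 peaks against 1 in immunoprecipitation 1. The widths of 363 and 1128 bp each came back in 5 of the 11. In the windows on chromosome 12 (28 members), and in 2 more on chromosome X (25 and 24 members), no step was shared by over 2 pairs. No source used here gives how reads that match several places were handled, and its part in these evenly spaced peaks was not tested.

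**Figure D5:**
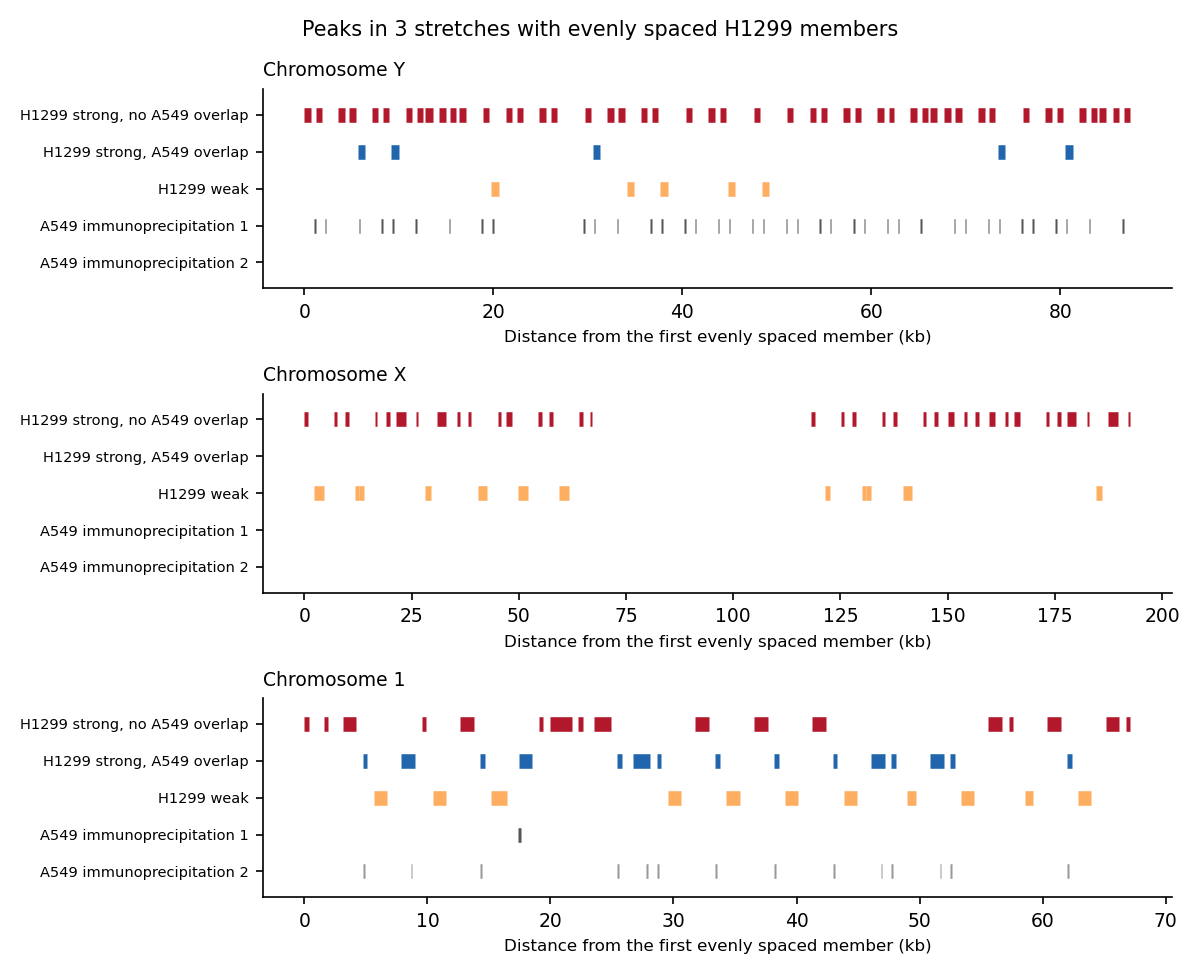
Peaks along 3 stretches with evenly spaced members on chromosomes Y, X and 1, with distance in kb from the first such member; bars are drawn to scale and rows separate H1299 classes and A549 lists. A549 immunoprecipitation 1 has 39 peaks in the chromosome Y stretch, neither A549 list has any in the chromosome X stretch, and immunoprecipitation 2 has 14 in the chromosome 1 stretch.

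The RNA libraries carried the markers that set the lines apart. Their tables, in the authors' scaled signal, may have been scaled separately, so levels are set side by side without a test. The epithelial cadherin CDH1 stood at 386, 646 and 284 in the A549 libraries (shGFP, shMETTL3 1 and 2) and at 1.0, 1.1 and 1.0 in H1299. AKR1B10, an aldo-keto reductase that is high when KEAP1 is lost, stood at 33171, 47006 and 19279 in A549 and at 3.9, 4.0 and 3.8 in H1299. The leukocyte marker PTPRC was at 0.7 or below in all 6 libraries. Not every listed marker of other cell types was that low. CD68 stood at 158, 168 and 177 in A549 and at 236, 251 and 224 in H1299. COL1A1 stood at 59.7, 91.8 and 72.2 in A549 and at 12.5, 30.0 and 32.2 in H1299.

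Genes of m6A writing, removal and reading were listed in both lines. In shGFP cells, 13 of 19 were lower in H1299 than in A549 and 6 were higher. Both tables listed 19426 genes with a value above 0 in the shGFP library of either line. Of these, 65.4% were lower in H1299, so the share of m6A genes was near that of all genes. The writer METTL3 stood at 557 in A549 and 271 in H1299 shGFP cells, and its partner METTL14 at 160 and 47.8. WTAP, which anchors the complex, stood at 110 and 137. The reader IGF2BP2, which binds m6A-marked mRNA, had the largest relative difference of the 19 in shGFP cells, at 17.1, 13.6 and 17.2 in the A549 libraries and at 153, 140 and 124 in H1299. The demethylase ALKBH5 stood at 1089 and 1034 in shGFP cells, and FTO at 371 and 152. Since each line has 1 shGFP library, these are levels of single libraries. Which members lie in transcripts that differ between the lines was not analysed here.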

How the data were processed

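m6A immunoprecipitation gave 2 peak lists of A549 and 1 of H1299. TopHat, Bowtie and hg19 are credited to the submitters' processing notes, which give here neither versions nor roles. The authors deposited each peak with a start, an end and a score; peak names start with MACS, per the file contents. No source used here gives the scale of the score, the thresholds or the use of the inputs. Every peak of A549 immunoprecipitation 1 carries the score 0, so no score was asked of it. The deposited RNA tables hold a scaled signal per gene and library, used for levels only; no source used here gives the basis of the scaling.

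Overlaps, gaps and neighbour counts were computed in Python 3.11.15 with pandas 2.3.3 and numpy 2.4.6. On simulated intervals they were tested against bedtools 2.31.1. Positions are printed with the first base as 1. Binomial intervals are Wilson intervals at 95%.

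Regions named were drawn from the 25 members with the highest score, the 10 widest and the 5 chains with most members. Positions are printed for a part of them, and positions on chromosome 8 are not printed. The 5 peaks on each side of the threshold are described without positions. m6A genes were listed by role. Nearest, farthest, evenly spaced and duplicate peaks were added after their values were seen. Members and lists were chosen with earlier results of these data known. The planned analysis of host genes, motifs and knockdown at host genes needs an hg19 annotation and was not done. Alternatives of score, overlap, reference list and merging were tried. A marker gene of the lines is not reported here.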

Additional observations from a re-analysis of the deposited data

How the results depend on the processing

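Recomputed over 10 other settings, 8 planned and 2 chosen after seeing the data, 51 of 89 values stayed within the main setting's counting error and 38 moved. For the number of members the limit was 1.5 times. The settings reuse the same peaks, and counting error treats peaks as independent. This tally is therefore a description and no measure of the spread between settings. Keeping only chromosomes 1 to 22, X and Y could not change a value, since the H1299 list holds 0 other peaks, and is not counted. Members had fewer A549 peaks within 500 kb than strong shared peaks in 10 of 10 settings for each A549 list, and a lower share on chromosome 19 in 10 of 10. Every setting splits the peaks by overlap with these same A549 lists. The lower A549 counts and the lower share on chromosome 19, where A549 peaks are densest, are thus built in to a part. The 10 of 10 is no separate check of either. The median width of members was smaller in 9 of 10. With 50% cover the order turned, to 1058 against 982.5 bp. That rule favours such a turn, since narrow A549 peaks seldom cover 50% of a wide H1299 peak. With 1 A549 list as the reference, the range was 14182 to 15323 members, 67.6 to 73.0% of strong peaks, a median width of 940 to 983 bp, 13.7 to 20.1% within 1 kb of an A549 peak, 26.8 to 29.1% within 1 kb of another member, and medians of 5 to 6 peaks of A549 immunoprecipitation 1 and 4 of immunoprecipitation 2 within 500 kb. The higher share near A549 follows from counting the list left out. With an A549 peak required to cover 50% of the H1299 peak, there were 19760 members (94.1% of strong peaks) with a median width of 1058 bp, 38.1% within 1 kb of A549, 28.3% within 1 kb of another member, and medians of 6 and 5 A549 peaks. A gap of over 500 bp to A549 gave 60.4% of strong peaks, 3.52% within 1 kb of A549 and 24.2% near another member. A minimum score of 500 gave 4529 members (46.9%), 1449 bp, 7.79% and 13.7%; of 200, 65.5%, 842 bp and 28.5% near another member; of 300, 59.7%, 1023 bp and 22.2%. Merging H1299 peaks under 100 bp apart gave 61.3%, 946 bp, 5.91% and 20.1%. Chosen later, chromosomes 1 to 22 alone gave 61.4%, and peaks whose width and score occurred once in the list gave 61.3% and 968 bp. Within 5 kb, 19.3% of members had an A549 peak and 36.5% another member, and 43.0% had any H1299 peak within 1 kb. The cause of moves other than those built into a setting was not tested. Alternatives on motifs, host genes and knockdown were not run, as no hg19 reference was used. The depth of the immunoprecipitations is unknown, so an absent A549 peak does not show absent methylation. No paired analysis was possible because no test was made and H1299 has 1 immunoprecipitation, so it shares fewer than 2 numbers with A549.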

Other observations

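Some members occurred in several places with the same dimensions. Width and score were both identical to those of another H1299 peak in 989 of 13136 members with a score under 3100 (7.53%) and in 161 of 7545 strong shared peaks (2.13%). From a score of 900 upwards it was 15 of 1226 members (1.22%) and 5 of 2827 strong shared peaks (0.177%). What peaks with shared values have in common was not tested. Among the highest such scores were chr6:100806677-100808139 and chr9:103867061-103868523 (each 1463 bp, 1153.9), and chr6:149299495-149299800 and chr7:117748612-117748917 (each 306 bp, 1129). On chromosomes X and Y, 16 pairs of peaks with equal width lay exactly 50000 bp apart in position and 3 pairs 95896994 bp apart. The pseudoautosomal regions at the ends of X and Y are identical in sequence. Of these pairs, 2 joined members: chrX:313083-313814 with chrY:263083-263814 (scores 268.89 and 277.8), and chrX:154988846-154989118 with chrY:59091852-59092124 (453.83 each).

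A further 4 members started within 12000 bp of the start of a chromosome, of 5 H1299 peaks there. They were chr7:9786-10297 (score 2041.02), chr1:9785-10451 (1427.66), chr18:9807-10512 (917.04) and chr4:9844-10331 (617.52), with widths of 488 to 706 bp. The A549 lists had 4 and 6 peaks starting there.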
